A study of Mus musculus with 2 samples.

Results

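The genes described here encode the machinery that licenses origins of DNA replication and runs the replication fork. They are a fixed list of 48 genes, chosen by name from knowledge of the pathway and sorted into 10 roles. Earlier results of these data were known when the list was chosen. The list spans the origin recognition complex, the MCM2-7 helicase, the factors that load and activate it, the sliding clamp and its loader, the polymerases, the single-strand binding protein RPA, the enzymes that finish Okazaki fragments, and genes for chromatin assembly, histone mRNA and deoxynucleotide supply. All 48 were found among the 69691 rows of the deposited gene tables, which hold 21474 protein-coding genes.

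The cells were granulocyte-monocyte progenitors (GMP), bone marrow cells that form granulocytes and monocytes, of male C57BL/6J mice aged 5 to 6 weeks, and total RNA was sequenced. The labels give no treatment or genetic change. There was 1 group of 2 libraries, replicate 1 and replicate 2, each made from a pool of 100 cells. They held 40509954 and 35675702 expected counts. With no second group, nothing could be compared between conditions, and the results are levels, their order and the difference between the libraries. The labels number the libraries as biological replicates 1 and 2. The donor identifier is shared and the sample identifiers differ, and no label states that separate animals were used. Each SD is therefore a spread between libraries, and its biological and technical parts cannot be told apart. In a pool of cells, fewer cells in S phase and less RNA per cell in S phase cannot be told apart.

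Before a cell enters S phase, the origin recognition complex binds origins and, with Cdc6 and Cdt1, loads MCM2-7 onto DNA as an inactive double ring. Geminin holds Cdt1 back after replication has started, so that an origin is licensed once per cycle. Kinases, Cdc45 and GINS then turn MCM2-7 into the active fork helicase, and polymerases, clamp, clamp loader and RPA copy the opened strands. Many genes of this machinery are textbook targets of E2F transcription factors, which act at promoters with motifs such as TTTCCCGC and TTTGGCGC. Progenitors of granulocytes and monocytes are known as cells that divide often.

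The labelled cell type was checked on marker genes. All 11 GMP markers stood at 10 TPM or more in both libraries (TPM is a level per transcript length, scaled to the same total in each library), with Mpo, the myeloperoxidase of granules, at 6332 and 6602 TPM. The sum of 4 B cell markers was 0.01 and 0 TPM, and Ly6a and Il7r, which are usually absent from the GMP gate, were at 0 in both. Of 6 erythroid markers, 2 reached 1 TPM in both libraries, and the 6 summed to 5.07 and 5.15 TPM. The 4 megakaryocyte markers summed to 8.15 and 7.8 TPM, with 1 of them at 1 TPM or more in both. The 4 macrophage markers summed to 4.48 and 4.99 TPM, and 3 T cell markers to 2.65 and 0.07. The 6 mature neutrophil markers summed to 90.4 TPM in the first library and 8.97 in the second (replicates 1 and 2).

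The promoters are shown first, since among the motifs counted the share with an E2F-type motif lay furthest from that of other expressed genes. RefSeq promoter windows, which reach from 250 bases before to 50 bases after a gene's start on GRCm38.p6, were at hand for 40 of the 48 genes. Either motif, TTTCCCGC or TTTGGCGC on either strand, lay in a window of 13 of the 40 genes, or 32.5%. Some genes have several windows, and a gene counted if any of its windows held the motif. Among 8229 protein-coding genes of 1 TPM or more the share was 3.79%, and among all 16317 protein-coding genes with a window it was 2.41%. Mcm3 held both motifs, at places that do not overlap. Each site is printed on the strand of its gene, 5′ to 3′, with the motif or its reverse complement in capitals.

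Of the 6 MCM2-7 genes, 4 held a site, and Mcm4 had no window to search. Mcm6 had 2 sites, 110 and 47 bases before its start, and the Mcm3 sites lie 19 and 38 bases after its start.
Mcm6, chr1:128359797-128359826: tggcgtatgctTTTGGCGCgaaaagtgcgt
Mcm6, chr1:128359734-128359763: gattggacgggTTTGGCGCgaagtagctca
Mcm5, chr8:75109349-75109378: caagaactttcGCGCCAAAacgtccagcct
Mcm7, chr5:138172030-138172059: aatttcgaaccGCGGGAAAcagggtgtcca
Mcm3, chr1:20820275-20820304: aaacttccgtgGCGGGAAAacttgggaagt
Mcm3, chr1:20820263-20820285: acttgggaagtTTTGGCGCcaag
Mcm3, Mcm6 and Mcm7 lie on the minus strand and Mcm5 on the plus strand.

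The other sites belonged to loading factors, 1 ORC subunit, 1 GINS subunit, 1 clamp loader subunit and 4 polymerase subunits. Cdc6 and Cdt1, which load the helicase, each had 1 site. Cdc6, Cdt1 and Gins3 lie on the plus strand, and Orc3, Rfc3, Pola1 and Pole2 on the minus strand.
Cdc6, chr11:98908002-98908031: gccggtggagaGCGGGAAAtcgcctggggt
Cdt1, chr8:122568036-122568064: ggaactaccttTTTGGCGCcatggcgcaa
Orc3, chr4:34614965-34614994: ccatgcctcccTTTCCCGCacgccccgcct
Gins3, chr8:95633507-95633536: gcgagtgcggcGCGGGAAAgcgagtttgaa
Rfc3, chr5:151651190-151651219: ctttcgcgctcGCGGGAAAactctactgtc
Pola1, chrX:93632275-93632304: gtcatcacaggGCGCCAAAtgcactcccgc
Pole2, chr12:69228162-69228191: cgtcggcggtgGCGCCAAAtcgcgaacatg
Pold1 and Pold3 also held TTTCCCGC. The windows of RPA, the Okazaki enzymes, the chromatin genes and the deoxynucleotide enzymes held neither motif, which says only that these letters are not in those windows.

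The motifs did not sort the genes by level. The 13 genes with a motif had a median of 54.6 TPM and ran from 5.97 (Gins3) to 256 (Mcm3), and the 27 without ran from 9.38 to 304 with a median of 43.7. Among other replication pathway genes, 8 of 34 with a window held an E2F-type motif (23.5%), and among 17 genes of mitosis 0 did. The CCAAT box, the letters CCAAT on either strand, lay in a window of 26 of 40 genes of the list (65.0%), against 43.5% of expressed protein-coding genes and 16 of 17 mitosis genes.

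**Figure D1:**
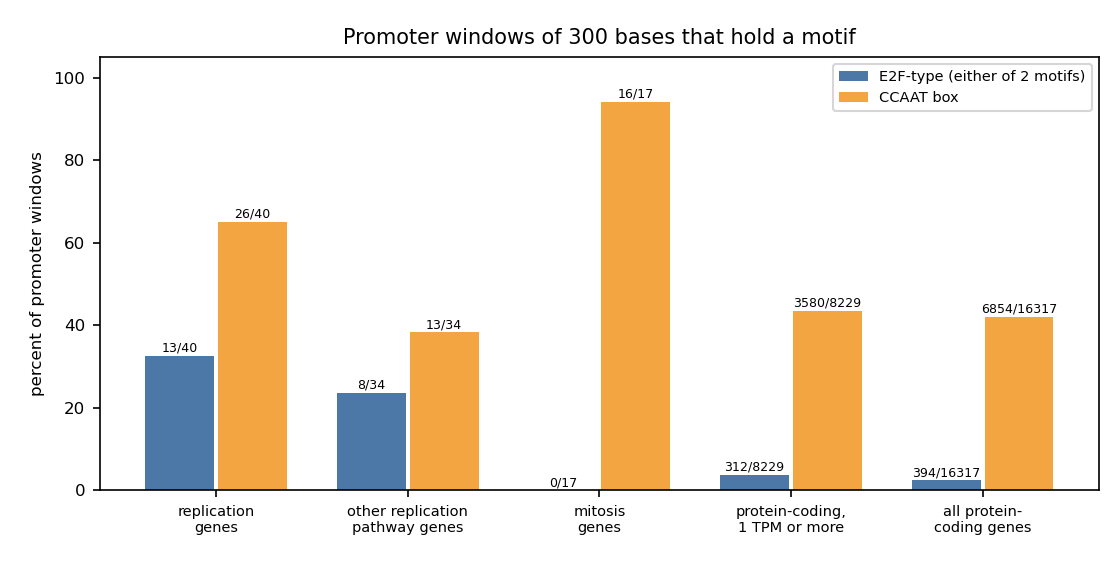
Percent of genes (y axis, labelled as promoter windows) with either E2F-type motif (blue) or a CCAAT box (orange) in any promoter window. Counts of genes stand above each bar. The replication genes reached 32.5% for the E2F-type motifs, against 3.79% of expressed protein-coding genes, while the mitosis genes held none of them and reached 94.1% for CCAAT.

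All 48 genes were at 1 TPM or more in both libraries, and 46 were at 10 TPM or more in both. Their median was 45.4 TPM (43.1 in replicate 1 and 48.7 in replicate 2), against 13.3 TPM over the 10278 protein-coding genes of 1 TPM or more. The range was 51.0-fold, from Gins3 at 5.97 TPM to Pcna at 304 TPM, and the genes together took 0.287% and 0.294% of all TPM. Between 337 and 14592 reads were counted per gene and library. For Gins3, the gene with the fewest, the 95% exact Poisson interval ran from 5.64 to 6.86 TPM in replicate 1 and from 5.11 to 6.34 in replicate 2, which covers counting error only.

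**Figure D2:**
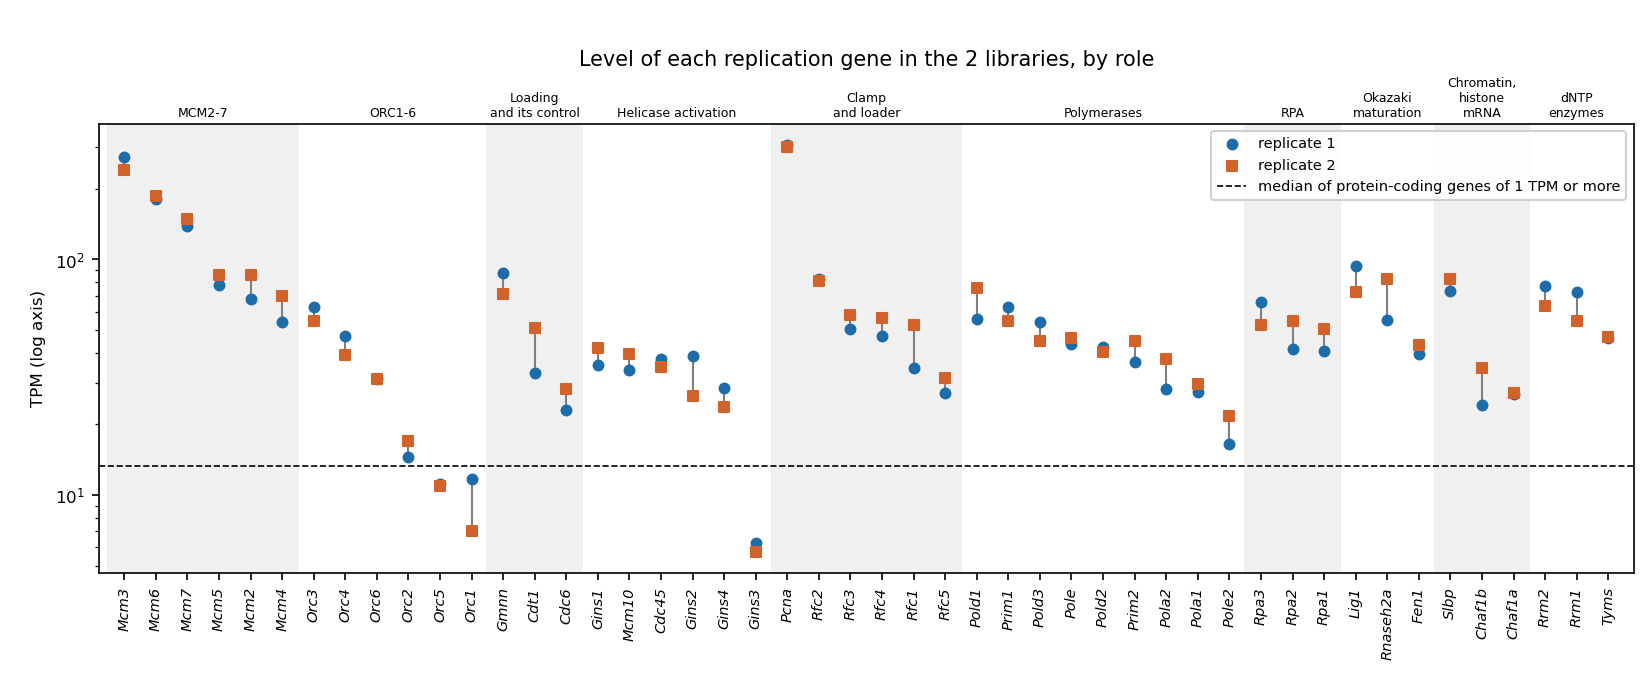
TPM on a log axis (y) for each of the 48 genes (x), grouped by role and ordered by mean within a role. Circles are replicate 1, squares replicate 2, and the dashed line is the 13.3 TPM median of expressed protein-coding genes. Pcna, Mcm3, Mcm6 and Mcm7 lie above 100 TPM and 3 genes, Orc5, Orc1 and Gins3, lie under the line in both libraries.

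The helicase subunits were the highest role by median. MCM2-7 is a ring of 6 different subunits present once each per hexamer. Mcm3 stood at 272 TPM in replicate 1 and 240.02 in replicate 2, and Mcm6 at 181 and 186. Mcm7 stood at 138 and 148 TPM and Mcm5 at 77.9 and 86.0. These 4 were followed by Mcm2, at 67.7 and 85.7 TPM, and Mcm4, at 54.1 and 69.7. Mcm3 was lower in replicate 2 and the other 5 were higher there. The role's median was 113 TPM, and its highest and lowest members differed 4.13-fold although the protein complex holds them in equal number.

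The origin recognition complex lay far lower. Its 6 subunits had a median of 23.4 TPM and, on a mean log2(TPM + 1) scale, stood 2.32 below MCM2-7 (2.18 in replicate 1 and 2.47 in replicate 2). Orc3 was at 62.5 and 54.8 TPM and Orc4 at 47.1 and 39.3. Orc6, which in animals joins the others loosely, was at 31.1 and 31.0. Orc2 followed at 14.5 and 16.9 TPM, and Orc5 at 11.1 and 10.9. Orc1, the subunit whose protein is known to rise and fall over the cell cycle in mammals, was at 11.7 and 7.03 TPM. No ORC subunit reached the level of the lowest of MCM2-7 by mean TPM, although Orc3, at 58.6 ± 5.48 TPM (SD, n = 2), and Mcm4, at 61.9 ± 11.02, did not differ beyond their spread. That nearness held only over all transcripts: on protein-coding transcripts alone Orc3 was at 27.04 ± 1.53 TPM (SD, n = 2), below Mcm4 in both libraries. Mcm4 has a single transcript, so its value is the same there.

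Among the loading factors, the inhibitor exceeded both loaders. Gmnn, which encodes geminin, stood at 87.5 and 71.3 TPM. Cdt1, the loader it binds, was at 32.9 and 51.4 TPM, and Cdc6, an ATPase that works with ORC, at 22.8 and 28.2. Both loaders were higher in replicate 2 and geminin was higher in replicate 1.

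Over all transcripts, Gins3 lay well below the other helicase activation genes. Cdc45, which joins MCM2-7 at the fork, was at 37.7 and 35.0 TPM, and Mcm10, needed for the helicase to start, at 33.9 and 39.5. The GINS complex also holds 4 subunits in equal number. Gins1 was at 35.7 and 42.0 TPM, Gins2 at 39.1 and 26.2, and Gins4 at 28.5 and 23.7. Gins3 lay lowest of the whole list at 6.23 and 5.70 TPM, from 412 and 337 counts. On protein-coding transcripts alone Gins2, at 8.33 TPM, and Mcm10, at 17.0, also lay far below Gins1, at 38.1.

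Pcna, the sliding clamp that holds polymerases on DNA, was the highest gene of the list. It stood at 308 TPM in replicate 1 and 301 in replicate 2. The clamp loader subunits, which open Pcna and close it around DNA, lay between 29.3 and 81.7 TPM by mean. Rfc2 was the highest, at 82.6 and 80.8 TPM, and Rfc5 the lowest, at 27.0 and 31.5. On protein-coding transcripts alone, Rfc3, at 20.5 TPM by mean, and Rfc1, at 5.29, lay below Rfc5, at 26.5. The main Rfc1 transcript has no annotated type and is left out there. Rfc3 was at 50.9 and 58.3 TPM, Rfc4 at 47.4 and 56.4, and Rfc1, the large subunit, at 34.5 and 52.8. The processed copy Pcna-ps2 drew 42.1 and 64.2 counts, and the authors' estimation of shared reads left a posterior SD of 4.76 and 6.34 counts on Pcna's 10724 and 9318.

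Over all transcripts, the 9 polymerase genes ranged from Pole2 at 19.0 TPM to Pold1 at 65.8. This order depends on the transcripts counted: on protein-coding transcripts alone Pold1 was the lowest of the 9, at 12.0 TPM, and Prim1 the highest, at 47.9. Pola1, the catalytic subunit of the priming polymerase alpha, was at 27.5 and 29.6 TPM, and Pola2 at 28.3 and 37.6. Prim1 and Prim2, the primase subunits that lay down RNA primers, were at 62.9 and 54.9 and at 36.8 and 45.1. Pold1, the catalytic subunit of the lagging-strand polymerase delta, was at 56.1 and 75.6 TPM. Its partners Pold2 and Pold3 were at 42.4 and 40.4 and at 54.4 and 45.03. Pole, the catalytic subunit of the leading-strand polymerase epsilon, was at 43.7 and 46.4 TPM, and Pole2 at 16.5 and 21.6.

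RPA, which coats single-stranded DNA, is a trimer. Rpa1 was at 41.0 and 50.7 TPM, Rpa2 at 41.6 and 55.0, and Rpa3 at 65.9 and 52.4. Of the genes that finish Okazaki fragments, Lig1, the ligase that seals nicks, was at 93.5 and 72.9 TPM. Fen1, the flap nuclease, was at 39.6 and 43.2, and Rnaseh2a, the catalytic subunit of the nuclease that removes RNA primers, at 55.5 and 82.8. On protein-coding transcripts alone the means were 38.3 TPM for Lig1, 41.4 for Fen1 and 31.0 for Rnaseh2a.

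Slbp, which binds the stem-loop of histone mRNA, was at 73.7 and 82.8 TPM. Chaf1a and Chaf1b, subunits of the histone chaperone CAF-1, lay lower, at 26.7 and 27.0 and at 24.2 and 34.7. The deoxynucleotide enzymes Rrm1 and Rrm2, the 2 subunits of ribonucleotide reductase, were at 72.9 and 55.0 TPM and at 77.2 and 63.3. Tyms, thymidylate synthase, was at 46.5 and 46.7, the nearest pair of values among the 48 genes by ratio.

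By median size, the libraries differed over the list about as much as over other genes of its range of TPM. A total of 0 of 48 genes were over 2-fold apart on log2(TPM + 1), where 4.12% of the 7432 protein-coding genes within the list's range of TPM were, and 7.52% of the 10278 of 1 TPM or more. The median size of the difference was 0.24 on the log2 scale, against 0.25 within that range. Replicate 2 was higher for 28 genes and replicate 1 for 20, with a median log2 ratio of replicate 2 to replicate 1 of 0.09, against 0.04 for expressed protein-coding genes, 54.6% of which were higher in replicate 2.

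The genes nearest to the 2-fold line were Orc1 (log2 ratio -0.66), Cdt1 (0.63) and Rfc1 (0.60), the only 3 over 1.5-fold, followed by Rnaseh2a (0.57) and Gins2 (-0.56). Of protein-coding genes within the list's range of TPM, 15.8% were over 1.5-fold apart. Cdt1 was also higher in replicate 2 by counts, 1961 against 2735. Orc1 was not lower by counts, with 448 in replicate 1 and 526 in replicate 2. In total, 11 of the 48 genes had one sign of the ratio in TPM and the other in CPM (counts scaled by library size but not by length), among them 4 ORC subunits. The same share over all protein-coding genes was not counted, so this is not read as a trait of the list. ORC had 5 of 6 subunits higher in replicate 1 by TPM and 5 of 6 higher in replicate 2 by CPM, so no direction can be given for ORC.

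**Figure D3:**
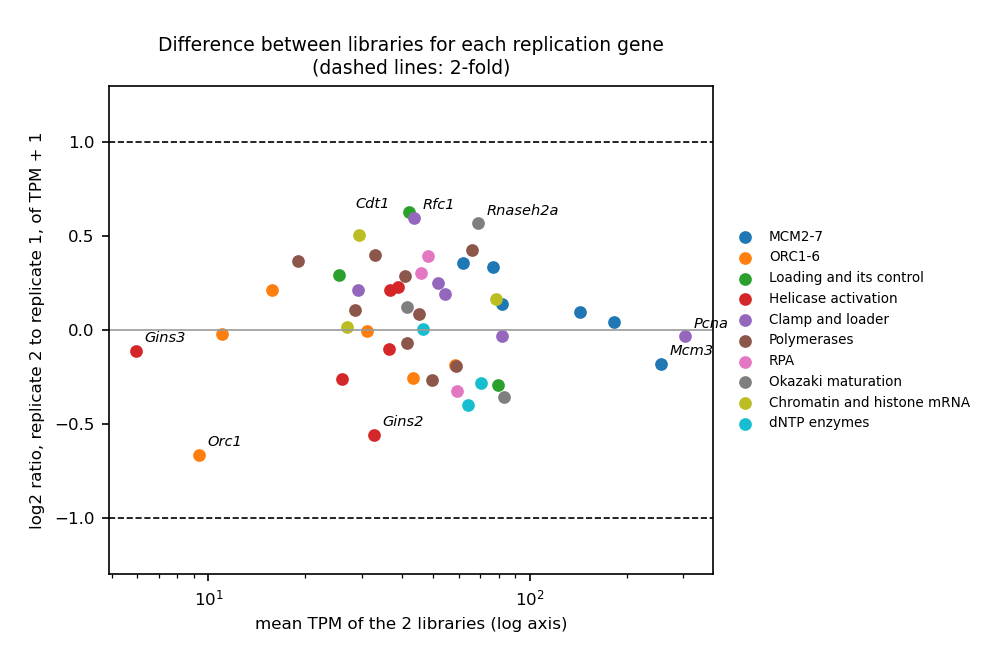
Log2 ratio of replicate 2 to replicate 1 of TPM + 1 (y) against mean TPM on a log axis (x), with 1 point per gene coloured by role and dashed lines at 2-fold. All 48 points lie between -0.66 (Orc1) and 0.63 (Cdt1), with 28 above 0.

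MCM2-7 and the ribonucleotide reductase genes kept their direction on both scales, except for Mcm3. By CPM all 6 MCM genes were higher in replicate 2, while by TPM 5 were. Rrm1 and Rrm2 were lower in replicate 2 on both, with Rrm1 at 8216 counts in replicate 1 and 5538 in replicate 2. Mitosis genes moved more: 17 of 20 were higher in replicate 1 by TPM, with a median log2 ratio of -0.40, against 20 of 48 for the replication list. The mature neutrophil markers were also higher in replicate 1, by the sums given above, and their part in these differences was not tested.

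The transcript tables divide each gene's TPM over its annotated transcripts. The median share of a replication gene's TPM on protein-coding transcripts was 89.0%, below the 97.0% over 10279 expressed protein-coding genes. Among genes with over 1 transcript it was 79.8%, against 85.8%. In 11 of the 48 genes the share was under 50% (22.9%, against 12.9%), Rfc1 among them because its main transcript is not in the later annotation, and 13 had over 20% of their TPM on transcripts annotated as retained intron (27.1%, against 16.5%). A retained-intron model is an annotated transcript that keeps sequence spliced out of the coding one. For 7 genes (14.6%, against 11.1%) the transcript with the most TPM was not annotated as coding: Mcm3, Gins2, Rfc3, Pold1, Rnaseh2a, Orc4 and Tyms. By expected counts, 0 of the 48 genes had such a leader in both libraries, and 378 of the 10279 did, while Lig1 had one in replicate 2 alone (Lig1-207, 1008 and 1456 counts). Genes with over 1 transcript were also compared by TPM. Among them 28.9% of the list had under 50% on coding transcripts, against 17.1%. Over 20% on retained introns was seen in 34.2%, against 22.2%, and a leader not annotated as coding in 18.4%, against 14.7%.

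**Figure D4:**
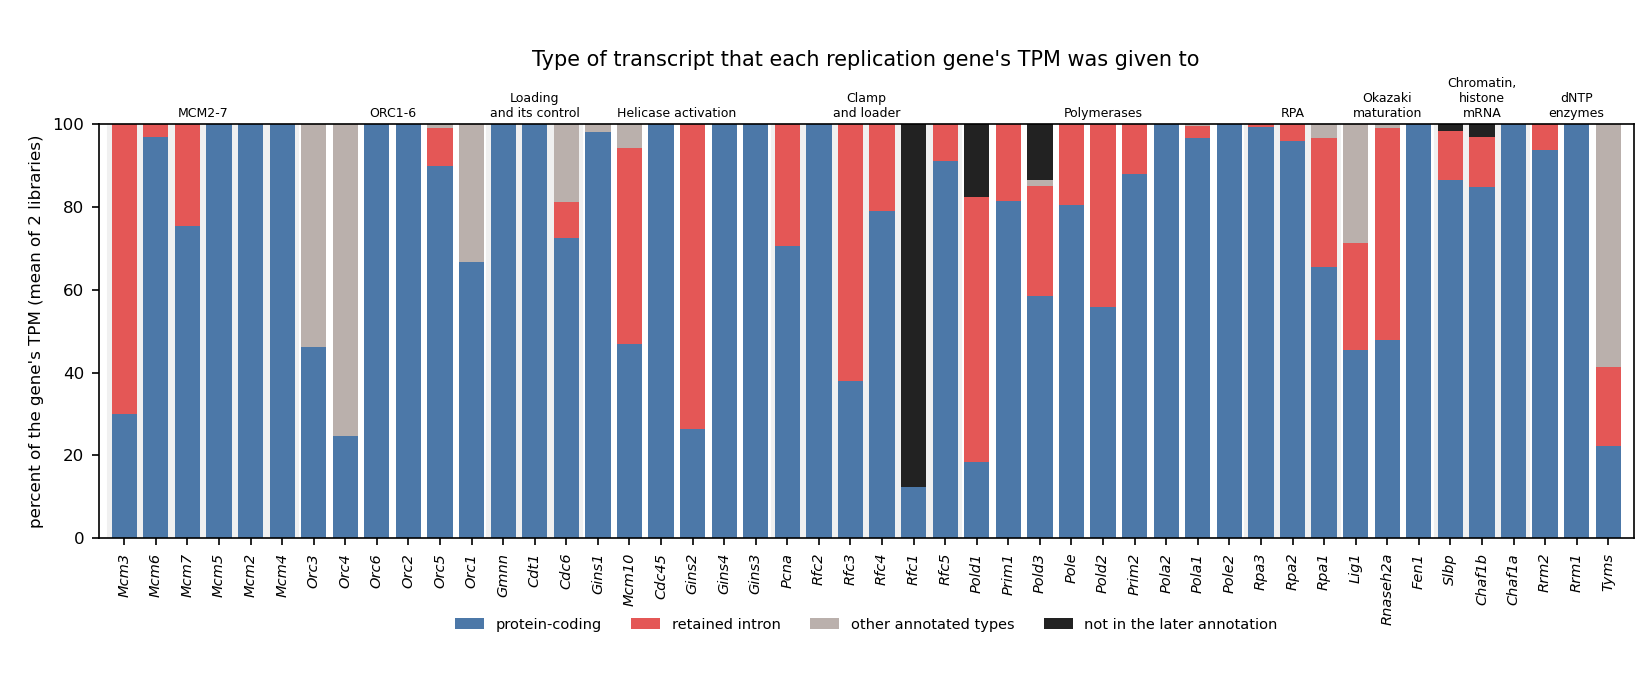
Percent of each gene's TPM (y, mean of the libraries) given to protein-coding transcripts (blue), retained-intron models (red), other annotated types (grey) and transcripts not in the later annotation (black), for the 48 genes (x) in the order of the plot of levels. The blue share falls under 50% for Mcm3, Gins2, Pold1, Tyms, Orc4 and 6 others, and Rfc1 is mostly black.

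Mcm3 is the clearest case, since its place as the highest helicase gene rests on short models. The coding transcript Mcm3-201, of 3031 bases, had 67.8 TPM in replicate 1 and 84.2 in replicate 2. The retained-intron model Mcm3-203, of 716 bases, had 124 and 112 TPM, and Mcm3-205, of 607 bases, had 70.4 and 35.0. By counts the order turned, with 5715 and 6340 on Mcm3-201 against 2016 and 1637 on Mcm3-203. Thus the coding transcript held 24.9% and 35.1% of the gene's TPM but 60.8% and 71.5% of its counts.

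The intron parts of these models are small. Only 67 bases of Mcm3-203 (9.36%) and 26 bases of Mcm3-205 (4.28%) lie in an intron of Mcm3-201, and the other bases are shared with its exons, where a read can come from either model. The same held for Gins2-204 (16 of 511 bases), Rfc3-207 (51 of 503) and Rnaseh2a-205 (27 of 338). Of 19 retained-intron models with 5% or more of their gene's TPM in both libraries and an annotated length equal to that in the files, 14 shared over 50% of their bases with the coding transcript that had the most counts and 11 reached into the last 10% of its length. The median shared part was 83.6%. The intron-exon borders of 5 such models follow, from GENCODE M21 transcripts on GRCm38, with intron bases in capitals and exon bases in lower case, all on the minus strand, since the intron bases are what sets these models apart from the coding transcript.
Mcm3-203, chr1:20803630-20803679: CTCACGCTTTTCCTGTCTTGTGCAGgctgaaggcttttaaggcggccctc
Mcm3-205, chr1:20804883-20804932: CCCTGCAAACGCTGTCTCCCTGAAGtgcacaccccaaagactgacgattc
Gins2-204, chr8:120586168-120586208: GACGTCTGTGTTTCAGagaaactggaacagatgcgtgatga
Rfc3-207, chr5:151644687-151644736: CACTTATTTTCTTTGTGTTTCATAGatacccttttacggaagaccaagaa
Pold1-209, chr7:44533860-44533909: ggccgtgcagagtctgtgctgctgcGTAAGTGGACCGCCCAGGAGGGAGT
The first 4 show the end of an intron running into an exon, and Pold1-209 shows an exon running into an intron.

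On protein-coding transcripts alone, Mcm6 led the helicase at 178 TPM, followed by Mcm7 at 108, Mcm5 at 81.9, Mcm2 at 76.7, Mcm3 at 76.0 ± 11.6 (SD, n = 2) and Mcm4 at 61.9. The highest and lowest then differed 2.87-fold. CPM per kb of the longest transcript, which need no split between models, gave Mcm6 85.4, Mcm3 70.0 and Mcm7 67.4, with a 1.98-fold range. The longest Mcm6 transcript, Mcm6-203 of 4355 bases, held only 7.17% and 14.5% of the gene's counts. Mcm6-201, of 2910 bases, held 92.5% and 85.1%, so the length used lowers Mcm6 here and narrows the range. Mcm3 had rank 2 of the 48 genes by TPM, rank 8 by coding transcripts and rank 3 per kb of the longest transcript. Mcm6 led MCM2-7 on both other scales, and MCM2-7 stood above ORC on each of them.

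**Figure D5:**
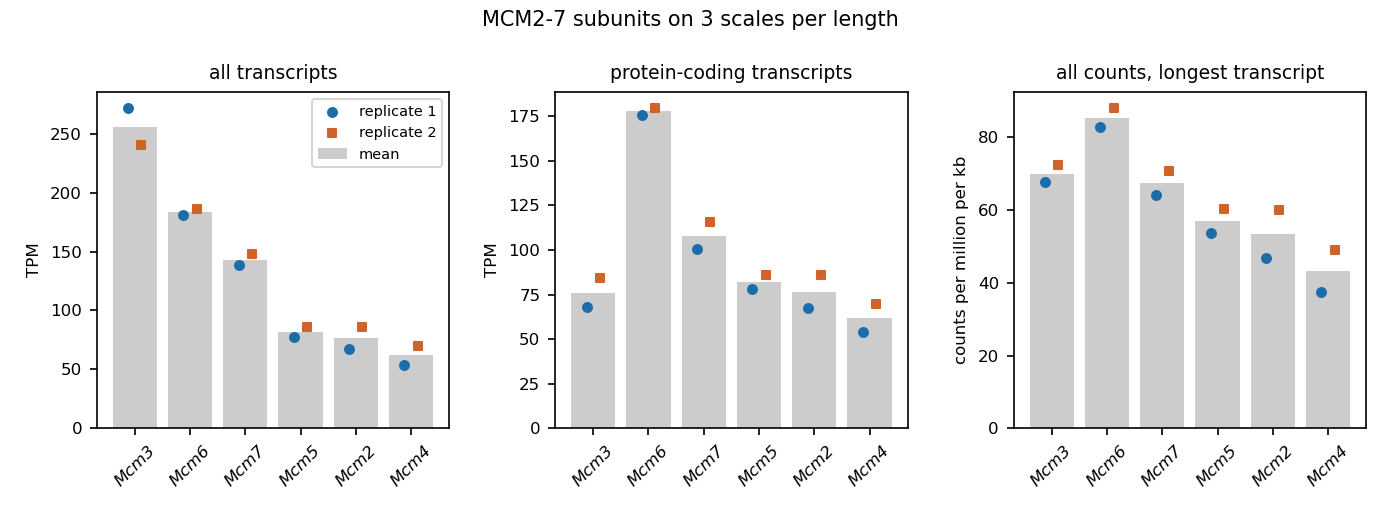
Levels of the 6 MCM2-7 genes (x) as TPM over all transcripts (left), TPM over protein-coding transcripts (middle) and CPM per kb of the longest transcript (right). Bars are means and points the libraries. Mcm3 leads on the left at 256 and falls to 76.0 in the middle, where Mcm6 leads at 178.

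Other genes fell as much or more on coding transcripts. Pold1 went from 65.8 to 12.0 TPM, Tyms from 46.6 to 10.4, Gins2 from 32.6 to 8.33 and Orc4 from 43.2 to 10.2. Pcna went from 304 to 215 and stayed first of the list, since Pcna-204, a retained-intron model of 931 bases, held 86.6 and 81.0 TPM. Single-transcript genes such as Mcm2, Mcm4, Mcm5, Cdt1, Rfc2 and Rrm1 (10 of the 48) cannot change.

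The split between models differed between the libraries for several genes. The transcript with the most TPM changed between libraries in 7 of the 48 genes (14.6%), against 24.1% of expressed protein-coding genes. Among genes with over 1 transcript the shares were 18.4% and 32.5%, so such changes were not more frequent in the list. Orc1-203, a processed transcript of 679 bases, had 7.80 TPM in replicate 1 and 0 in replicate 2, while coding Orc1-201 had 3.93 and 7.03. Orc4 on coding transcripts was at 5.63 and 14.7 TPM, a log2 ratio of 1.25 and the only gene over 2-fold there, where all its transcripts together gave 47.1 and 39.3. Rnaseh2a-205 alone went from 19.6 to 51.3 TPM. For Rfc1, the transcript with the most TPM in replicate 1, of 4751 bases and with 20.6 and 18.6 TPM, has no entry in the later annotation, and another model outside it, of 485 bases, had 1.31 and 23.9 TPM.

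Where a gene's exons overlap another gene's, the count rests on how reads were assigned, and it is not stated whether counting used strand. Exons of 15 of the 48 genes overlap a gene on the opposite strand, and the share over all genes was not counted. The overlap covers 67.3% of the exon bases of Gins2 (with Gse1, 2506 and 2967 counts) and 52.5% of those of Chaf1a (with Ubxn6, 774 and 422 counts). It covers 78.8% for Fen1 with Gm10143, which had 0 counts, and 5.37% with Tmem258 (2137 and 1602 counts). Without strand, shared reads could go to either gene, so 0 counts on Gm10143 does not clear Fen1. Smaller overlaps include Orc2 with Nif3l1 (29.8%, 534 and 462 counts) and Rfc4 with Eif4a2 (12.7%, 7260 and 8007 counts). The values of all genes with such an overlap are uncertain for this reason, with Gins2 and Chaf1a overlapped most by genes that had counts.

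The genes lie on 15 chromosomes, with 9 on chromosome 5 and 7 on chromosome 8. A gene on the other strand starts within 1000 bases of the start of 13 of the 48, pointing away (27.1%, against 15.5% of expressed protein-coding genes), and for 7 that neighbour is protein-coding (14.6% against 11.6%). Orc1 starts 87 bases from Prpf38a, a splicing factor gene, which stood at 37.3 and 24.2 TPM, above Orc1 in both libraries. Orc3 starts 13 bases from Rars2 (17.0 and 16.5 TPM) and Gins1 659 bases from Abhd12 (11.9 and 18.2 TPM). Mcm4 starts 466 bases from Prkdc, the catalytic subunit of the DNA-dependent protein kinase, at 10.6 and 12.0 TPM, and Rpa3 115 bases from Umad1, at 10.95 and 8.25 TPM.

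Further genes of the pathway were also expressed. Of 41 further replication genes, 41 were at 1 TPM or more in both libraries and 34 at 10 TPM or more, with a median of 29.5 TPM. The highest were Dut, which clears dUTP, at 143 and 141 TPM, and Ssrp1, a subunit of the histone chaperone FACT, at 110.02 and 123. Tipin, of the fork protection complex, was at 112 and 109, Tk1, thymidine kinase, at 94.5 and 100.0, and Nasp, a histone chaperone, at 90.6 and 92.2. The lowest were Rrm2b at 1.81 and 3.17 TPM, Recql4 at 4.09 and 4.32 and Mcm9 at 3.8 and 5.52. Mtbp, which acts with Ticrr in origin firing, was the only 1 of the 41 over 2-fold apart, at 24.2 and 10.8 TPM.

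The genes of the E2F factors themselves had a median of 13.8 TPM over 10 genes, all at 1 TPM or more in both libraries. Tfdp1, the partner with which most E2F factors bind DNA, was the highest at 114 and 133 TPM. The activators E2f1, E2f2 and E2f3 stood at 15.3 and 21.7, at 4.45 and 1.41 and at 8.83 and 11.7 TPM. Of the 5 factors known as repressors, E2f4 (62.1 and 56.3 TPM) and E2f8 (47.3 and 44.6) lay above all 3 activators by mean. E2f6 (17.2 and 17.4) lay above E2f1 in replicate 1 and below it in replicate 2, and above E2f2 and E2f3 in both. E2f7 (3.57 and 5.98) lay below E2f1 and E2f3 in both. E2f5 (1.46 and 2.66) lay below all 3 by mean, though above E2f2 in replicate 2. Thus neither class as a whole stood above the other. These factors were named after their values were seen.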

How the data were processed

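Each of the 2 libraries has a gene table and a transcript table. The authors deposited expected counts, which are estimated reads and not always whole. Their deposited TPM and FPKM are per length, and the totals behind them take in spike-ins and mitochondrial genes. A deposited percent per transcript is its share of its gene's TPM. Per the deposited text files, the reference was the transcriptome of mm10 with GENCODE M4. Aligner, quantifier and use of strand: not given in the sources used here.

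Symbols, biotypes, spans and transcript sequences came from GENCODE M21 on GRCm38 (42462 of 43346 Ensembl rows matched), and promoter windows from RefSeq on GRCm38.p6. The 48 genes and all lists were chosen with earlier results of these data known. Means are given with the SD over 2 libraries. Ratios are log2((TPM + 1) / (TPM + 1)), which understates changes of low genes. A 2-fold difference counted as apart. With 1 group, no test was made. All 48 genes could be named. Of the further pathway genes the 5 highest, the 3 lowest and each over 2-fold apart were named, and of divergent neighbours the 5 highest. Alternatives used edgeR 4.0.16 TMM factors and DESeq2 1.42.0 size factors on rounded expected counts with 10 or more counts, in R 4.3.3, and other steps Python 3.11.15. The ratio step was tested on simulated counts of 21474 genes, 200 of them changed 4-fold, for replicate 2 against replicate 1, and 99.5% were recovered. In the simulation 0.11% of unchanged genes passed 2-fold, against 7.52% of expressed protein-coding genes between the real libraries. Each simulated gene kept its length in both libraries. The simulation thus covers large changes under low noise, and not the noise or the splits between transcripts seen here. No molecular identifiers are named, so counting error is a lower bound on error.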

Additional observations from a re-analysis of the deposited data

How the results depend on the processing

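No paired analysis was possible because there is 1 group. The count of genes at 1 TPM or more, the 28 genes higher in replicate 2 (26 to 28 under alternatives) and the median log2 ratio (0.01 to 0.10) kept their direction under each alternative run. The median level of 45.4 TPM was 93.6 with TPM rescaled over protein-coding genes without Lars2, 33.2 as FPKM, 32.0 on protein-coding transcripts and 21.7 as CPM per kb of the longest transcript, an alternative chosen after seeing the data. Those are other units or totals. It was 43.1 to 48.7 without either replicate. Genes over 2-fold apart numbered 1 on protein-coding transcripts (Orc4) and 3 at a 1.5-fold limit, which 15.8% of genes within the list's range passed. The distance of MCM2-7 from ORC, 2.32 on the log2 scale, was 2.85 as CPM, which is not per length, and 2.61 on protein-coding transcripts. It was 2.18 to 2.47 without either replicate. The median coding share of 89.0% was 84.9% to 95.5% without either replicate and 93.1% by expected counts, an alternative also chosen after seeing the data. The fewest counts for a gene in a library were 337, but the effect of depth was not tested, and n = 2 limits all spreads.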
